A study of Mus musculus with 11 samples.

Results

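A set of 10 genes was followed across mouse B cell leukemia and 2 kinds of B cell precursor: Rnase10, Rnase11, Rnase12, Pnp2, Crisp1, Cdh17, Myl10, Tmem119, Tmem40 and Fam69b. Most of them are known mainly from tissues other than the B lineage, but Myl10 was first described in precursor lymphocytes. The set is 10 of the 24319 genes in the deposited tables. The genes were picked by symbol because they were low or absent in the precursor libraries and high in the leukemia libraries. For Myl10, low holds only relative to leukemia, since it stood at 25.8 to 259 FPKM in the precursor libraries. The difference between leukemia and precursors is therefore how the genes were chosen, and it is given below as a description with no test. All samples were C57BL/6J mice. The leukemic cells, called B-ALL for B cell acute lymphoblastic leukemia, were taken from the lymph node of leukemic Ebf1+/- Pax5+/- animals. Mice 686, 713 and 760 gave 2 libraries each. The dHet proB cells were Ebf1+/- Pax5+/- Rag2-/-, started as c-Kit+ fetal liver cells and gave 3 libraries. They had been cultured briefly over a feeder layer of OP9 stroma with 5 ng/ml IL-7, 10 ng/ml Flt3L and 10 ng/ml SCF. The wt proB cells were Ebf1+/+ Pax5+/+ Rag2+/+, were sorted as Fraction BC from bone marrow of control mice and gave 2 libraries. B-ALL and dHet proB cells thus share the heterozygous loss of both transcription factors, while Rag2 genotype, tissue, culture and leukemia change together between the groups and cannot be told apart. The series text calls the mice behind the dHet proB cells pre-leukemic. The labels of dHet proB library 3 disagree, with replicate 3 in the title and replicate 2 in the source name.

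Ebf1 and Pax5 are transcription factors that set up and hold the B cell programme, and proB cells are the stage at which the immunoglobulin heavy chain is assembled. The RNase A family is named for a small secreted ribonuclease. Rnase9, Rnase10, Rnase11 and Rnase12 are members known from the epididymis, the duct where sperm mature, and their ribonuclease activity was not measured. Pnp2 is a mouse copy of Pnp, the purine nucleoside phosphorylase that splits inosine and guanosine. Crisp1 is a cysteine-rich secretory protein of the epididymis that coats sperm, Cdh17 is the liver-intestine cadherin, which has also been described on mouse B lineage cells, and Myl10 is a regulatory light chain of myosin first described in precursor lymphocytes. Tmem119 is a membrane protein used as a marker of microglia and also known from osteoblasts, Tmem40 is a membrane protein of little known function, and Fam69b belongs to a family of proteins of the endoplasmic reticulum that resemble kinases.

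RefSeq promoters (build GRCm38.p6) were found for 7 of the 10 genes. Those of Rnase10 (first start), Rnase11, Rnase12, Crisp1 and Fam69b are shown, because most promoters found hold few CpG dinucleotides. The choice of genes did not use CpG content, but whether the 2 are independent was not tested. Pnp2, Cdh17 and Tmem119, for which none was found, are named only, and the promoters of Myl10 and Tmem40 are counted but not shown. Each line below gives the 250 bases before an annotated start, 5′ to 3′ on the strand of the gene, with every CpG in capitals. The places are chr14:51007501-51007750 on the plus strand for Rnase10, chr14:51050164-51050413 on the minus strand for Rnase11, chr14:51057243-51057492 on the minus strand for Rnase12, chr17:40319208-40319457 on the minus strand for Crisp1 and chr2:26628207-26628456 on the plus strand for Fam69b, listed by RefSeq as Dipk1b.
Rnase10: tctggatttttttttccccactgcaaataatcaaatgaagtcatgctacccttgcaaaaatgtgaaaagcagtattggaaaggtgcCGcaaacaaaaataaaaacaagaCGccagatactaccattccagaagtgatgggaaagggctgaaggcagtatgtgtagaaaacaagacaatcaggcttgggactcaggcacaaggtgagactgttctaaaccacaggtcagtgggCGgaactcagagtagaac
Rnase11: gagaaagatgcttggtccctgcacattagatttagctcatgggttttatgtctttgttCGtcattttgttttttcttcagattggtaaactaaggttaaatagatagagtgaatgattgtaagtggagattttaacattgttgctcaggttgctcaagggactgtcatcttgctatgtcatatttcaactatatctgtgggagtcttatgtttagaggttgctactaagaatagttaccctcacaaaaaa
Rnase12: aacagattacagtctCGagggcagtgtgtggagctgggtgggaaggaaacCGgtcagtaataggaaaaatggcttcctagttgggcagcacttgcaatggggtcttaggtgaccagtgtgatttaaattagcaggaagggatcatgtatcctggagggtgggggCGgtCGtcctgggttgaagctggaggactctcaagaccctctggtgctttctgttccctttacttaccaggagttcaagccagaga
Crisp1: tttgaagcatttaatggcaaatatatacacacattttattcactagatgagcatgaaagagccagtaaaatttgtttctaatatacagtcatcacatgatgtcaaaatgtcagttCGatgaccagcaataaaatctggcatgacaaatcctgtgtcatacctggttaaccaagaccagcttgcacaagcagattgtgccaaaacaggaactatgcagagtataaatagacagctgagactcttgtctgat
Fam69b: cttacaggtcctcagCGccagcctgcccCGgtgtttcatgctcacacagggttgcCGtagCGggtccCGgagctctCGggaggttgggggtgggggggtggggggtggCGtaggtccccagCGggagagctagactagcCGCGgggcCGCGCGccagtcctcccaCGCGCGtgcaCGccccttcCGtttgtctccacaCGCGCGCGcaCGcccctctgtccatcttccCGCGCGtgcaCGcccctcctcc
The Rnase10 promoter holds 3 CpG and 43.2% G or C, that of Rnase11 holds 1 CpG and 35.6%, that of Rnase12 holds 4 CpG and 51.6%, and that of Crisp1 holds 1 CpG and 36.8%. Fam69b stands apart with 27 CpG and 71.6% G or C. Before the second Tmem40 start, not shown, there are 5 CpG and 62.8% G or C. The 7 genes have 11 annotated starts in all, since Rnase10 and Tmem40 have 2 each and Myl10 has 3. Of these 11 promoters, 9 hold 4 CpG or fewer, against 44.4% of all 32851 promoters in the table, whose median is 6; several of the 11 are starts of the same gene and the Rnase10 windows overlap. Both strands of the 11 windows were searched for 7 short motifs of lymphoid and general transcription factors. The RUNX letters TGTGGTT occur 35 bases before the first Rnase10 start, on the other strand, and the second Rnase10 window covers the same site; 4.40% of all promoters hold them. The E-box CAGCTG occurs 21 bases before the Crisp1 start and in 13.0% of all promoters. The EBF1 letters, TCCC and GGGA parted by 2 bases, are in 0.779% of all promoters and in none of the 11. The same holds for the STAT5 letters TTCNNNGAA (7.02% of all promoters), the E-boxes CACGTG (6.02%) and CAGGTG (17.2%) and the ETS letters CCGGAAGT (2.88%). This says only that these letters are not in these windows.

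Levels are given as FPKM, a fragment count divided by transcript length and by the size of the library. The deposited FPKM summed to between 505261 and 638953 per library, with 13251 to 14947 genes above 0; read depth is unknown, so no counting error can be given. The B-ALL libraries held the B lineage marker Cd79a at 1247 to 2375 FPKM, and all 9 listed B lineage markers passed the filter on low values. Ebf1, heterozygous in B-ALL and dHet proB, stood at 151 to 212 FPKM in B-ALL, 283 to 369 FPKM in dHet proB and 297 and 542 FPKM in wt proB. Pax5, likewise heterozygous, stood at 35.3 to 52.8 FPKM in B-ALL, 70.9 to 99.0 FPKM in dHet proB and 100.6 and 57.2 FPKM in wt proB. No library was a copy of another.

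The 3 genes of the RNase A family spanned the widest range of levels. Rnase12 stood at 1167 and 1184 FPKM in mouse 686, 1559 and 1540 FPKM in mouse 713 and 1134 and 1085 FPKM in mouse 760, against 9.37, 6.57 and 48.8 FPKM in dHet proB and 12.2 and 10.5 FPKM in wt proB. It ranked between 27th and 47th of all 24319 genes in the B-ALL libraries and between 2341st and 7047th in the proB libraries. Rnase10, which in mice is needed for sperm to mature in the epididymis, stood at 23.7 and 21.8 FPKM in mouse 686, 11.8 and 11.8 FPKM in mouse 713 and 129 and 107 FPKM in mouse 760, against 0.114, 0 and 0.977 FPKM in dHet proB and 0.701 and 0.0509 FPKM in wt proB. Rnase11 stood at 13.2 and 12.04 FPKM in mouse 686, 48.9 and 48.4 FPKM in mouse 713 and 23.7 and 23.9 FPKM in mouse 760, against 0, 0.232 and 0.318 FPKM in dHet proB and 0 and 0.0684 FPKM in wt proB. All B-ALL libraries lay above all proB libraries for the 3 genes, and the mouse with the most Rnase10 was not the one with the most Rnase11.

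Pnp2, the purine nucleoside phosphorylase copy, stood at 220 and 207 FPKM in mouse 686, 307 and 302 FPKM in mouse 713 and 115 and 108 FPKM in mouse 760, against 9.93, 9.27 and 53.0 FPKM in dHet proB and 4.00 and 2.92 FPKM in wt proB. Its groups came closest of all 10 genes: the lowest B-ALL library held 2.03 times the highest proB library, which was dHet proB library 3. Of the 31-base words in Pnp2 transcripts, 39.0% also occur in transcripts of other genes, nearly all of them of Pnp, so part of the reads of Pnp and Pnp2 could have been assigned to either. Crisp1 stood at 32.7 and 30.98 FPKM in mouse 686, 75.6 and 81.9 FPKM in mouse 713 and 31.2 and 33.2 FPKM in mouse 760, against 0.1004, 0.357 and 0.165 FPKM in dHet proB and 0.122 and 0.0555 FPKM in wt proB. This was the widest gap, the lowest B-ALL library holding 86.7 times the highest proB library. Crisp1 shares 10.9% of its words, mostly with Crisp3, which itself reached at most 0.592 FPKM in any library.

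Among the genes of adhesion and the cytoskeleton, Cdh17 stood at 109 and 95.4 FPKM in mouse 686, 309 and 293 FPKM in mouse 713 and 28.0 and 27.8 FPKM in mouse 760, against 1.34, 0.773 and 2.09 FPKM in dHet proB and 0.579 and 0.183 FPKM in wt proB. Each B-ALL mouse had its own Cdh17 level, and no proB library exceeded 2.09 FPKM. Myl10 stood at 1020 and 1029 FPKM in mouse 686, 792 and 772 FPKM in mouse 713 and 1969 and 1800 FPKM in mouse 760, against 100.2, 150.1 and 259 FPKM in dHet proB and 30.9 and 25.8 FPKM in wt proB. It was thus well above the floor in every proB library, in 3 steps that did not overlap: B-ALL highest, dHet proB between and wt proB lowest. In mouse 760 it ranked 17th and 18th of all genes and took up to 0.311% of the summed FPKM.

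The membrane and endoplasmic reticulum proteins differed in level. Tmem119 stood at 179.5 and 174 FPKM in mouse 686, 488 and 456 FPKM in mouse 713 and 152 and 126 FPKM in mouse 760, against 12.1, 5.90 and 44.6 FPKM in dHet proB and 7.16 and 7.86 FPKM in wt proB. Tmem40 stood at 20.9 and 19.3 FPKM in mouse 686, 4.33 and 5.57 FPKM in mouse 713 and 31.5 and 30.03 FPKM in mouse 760, against 0.702, 0.184 and 1.16 FPKM in dHet proB and 0.344 and 0.189 FPKM in wt proB. Tmem40 had the lowest mean of the 10 genes over the 3 B-ALL mice, although Rnase11 was lower in mice 686 and 760 and Cdh17 in mouse 760, and mouse 713, the highest for Tmem119, was the lowest for Tmem40. Fam69b stood at 24.2 and 134 FPKM in mouse 686, 20.9 and 38.4 FPKM in mouse 713 and 83.3 and 76.7 FPKM in mouse 760, against 0.714, 0.889 and 1.01 FPKM in dHet proB and 3.65 and 2.39 FPKM in wt proB. It was the only one of the 10 whose paired libraries of a mouse differed by more than 1.29 times, by 5.54 times in mouse 686 and 1.83 times in mouse 713, and the only one lower in every dHet proB library than in both wt proB libraries. Of all tested genes, 5.40% had at least 2 times as much in the second library of mouse 686 as in the first. Of its transcript words 20.0% are shared with the gene model Gm20532.

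**Figure D1:**
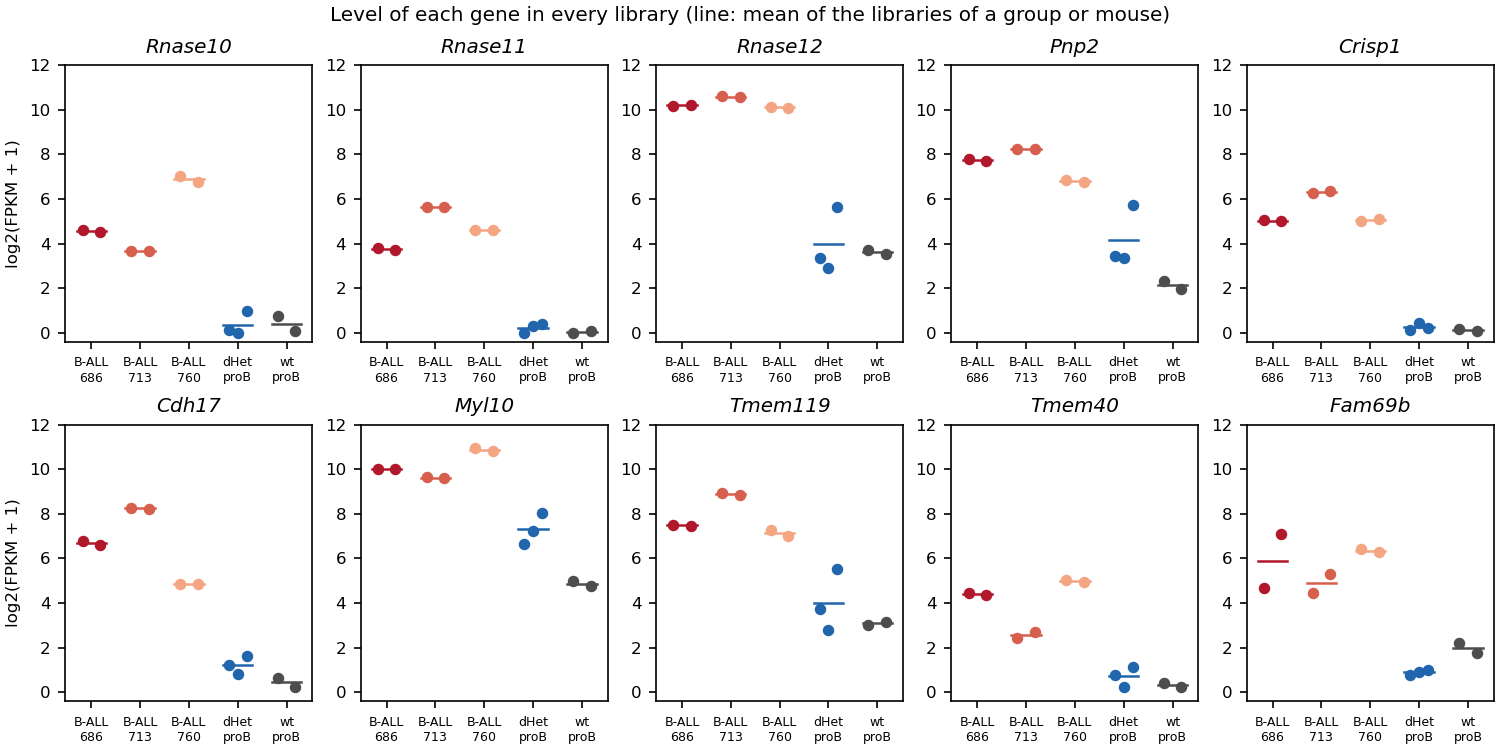
Each panel plots 1 gene, with log2(FPKM + 1) on the vertical axis, 1 point per library and a line at the mean of the libraries of each B-ALL mouse or proB group. In every panel the 6 B-ALL libraries lie above the 5 proB libraries, and Myl10, Tmem119, Rnase12 and Pnp2 reach at least 44.6 FPKM in a proB library while the other 6 genes reach at most 3.65 FPKM there.

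On the log2(FPKM + 1) scale, which understates the change of genes with low FPKM, the mean of the 3 B-ALL mice exceeded wt proB by 6.69 for Rnase12, 6.14 for Cdh17, 5.46 for Pnp2, 5.35 for Crisp1 and 5.30 for Myl10. The difference was 4.74 for Tmem119, 4.63 for Rnase10 and Rnase11 alike, 3.70 for Fam69b and 3.65 for Tmem40. Set against dHet proB, B-ALL was higher by 6.33 for Rnase12, 5.37 for Cdh17, 5.20 for Crisp1, 4.79 for Fam69b, 4.67 for Rnase10 and 4.44 for Rnase11. It was higher by 3.82 for Tmem119, 3.41 for Pnp2, 3.28 for Tmem40 and 2.86 for Myl10. The order thus depends on the group compared with. Myl10 and Pnp2, the 2 genes with the largest dHet proB over wt proB difference, stand further from wt proB than from dHet proB. Fam69b stands closer to wt proB. In 10 of 10 genes every B-ALL library lay above every proB library, as it did for 13.0% of the 11110 genes tested, and in 10 of 10 above 2 times every proB library, as for 1.39%. The genes were picked for this, so nothing is read from it. In bulk RNA fewer cells that express a gene and less RNA per cell cannot be told apart.

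The comparison of the 2 proB groups was not used to choose the genes and asks whether any of them differed between dHet proB and wt proB. These groups differ at once in Ebf1, Pax5 and Rag2 genotype, in tissue and in culture. Of the 10 genes, Myl10 was the only one that passed. Its level in dHet proB exceeded that in wt proB by 2.44 (95% confidence interval 1.39 to 3.48, limma adjusted p = 0.0138), in 3 of 3 dHet proB libraries. That makes 1 of 10, against 8.68% of the 11110 genes tested that passed in this comparison in either direction. Rnase10, Rnase11, Crisp1 and Tmem40 entered this test only through their level in B-ALL, and both proB groups are near 0 for them. In a fit of the proB groups alone 6 of the 10 genes were tested, and 2 passed, Myl10 (adjusted p = 0.00872) and Fam69b (adjusted p = 0.0193), against 11.4% of 10769 genes. Without wt proB library 1 or library 2 no gene of the 10 passed, and without dHet proB library 3 Myl10 still did. Pnp2 was higher by 2.04 (0.38 to 3.70, adjusted p = 0.135) and Fam69b lower, with a difference of -1.09 (-1.99 to -0.18, adjusted p = 0.144); neither passed with all groups in the fit, although the proB groups did not overlap for either gene. Without mouse 713, Fam69b passed as well, which made 2 genes.

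The intervals of the other 7 genes are wide and include 0. The difference of dHet proB minus wt proB was 0.92 for Tmem119 (-0.87 to 2.70), 0.78 for Cdh17 (-1.11 to 2.66), 0.37 for Tmem40 (-1.09 to 1.83) and 0.36 for Rnase12 (-1.23 to 1.94). For Rnase11 it was 0.19 (-0.89 to 1.26), for Crisp1 0.14 (-0.73 to 1.02) and for Rnase10 -0.04 (-1.95 to 1.87), and the adjusted p of the 7 lay between 0.553 and 0.986. For Rnase10, Rnase11, Crisp1, Cdh17 and Tmem40 both proB groups had libraries below 1 FPKM, so the pseudocount of 1 caps how far they can differ. Whether the proB libraries stem from different animals or cultures is not labelled, so these p-values measure the spread between libraries.

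For Rnase12, Pnp2 and Tmem119 the spread within the dHet proB group came mostly from library 3. Library 3 held 48.8 FPKM of Rnase12, 6.13 times the mean of the other 2 libraries, 53.0 FPKM of Pnp2, 5.52 times that mean, and 44.6 FPKM of Tmem119, 4.95 times. Rnase10 was 17.2 times that mean but at only 0.977 FPKM. These 4 of 10 genes were at 3 times or more, as were 3.78% of all tested genes. Library 3 was the highest of the 3 for 9 of 10 genes, all but Crisp1, as it was for 38.1% of all tested genes. Rnase4, Ang and Pnp, which lie next to the RNase members, were also highest in library 3, at 44.8, 17.6 and 133 FPKM, against 27.7 and 19.8 FPKM of Rnase4, 6.17 and 3.62 FPKM of Ang and 42.9 and 51.3 FPKM of Pnp in libraries 1 and 2. This split was noticed in the data, it is not a labelled batch, and its source was not tested. With library 3 left out, the difference of dHet proB minus wt proB was 1.26 for Pnp2, 0.16 for Tmem119 and -0.47 for Rnase12, and 2.08 for Myl10.

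**Figure D2:**
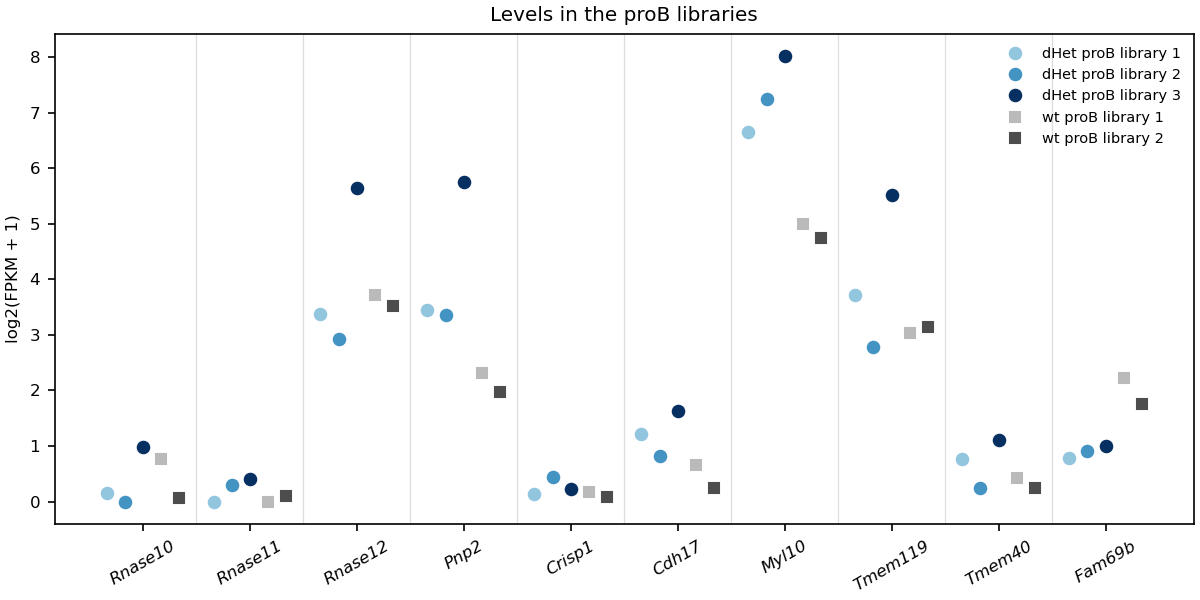
Levels of the 10 genes in the proB libraries, with log2(FPKM + 1) on the vertical axis; circles are the 3 dHet proB libraries and squares the 2 wt proB libraries. Myl10 is higher in each dHet proB library than in both wt proB libraries, and dHet proB library 3 stands above the other 2 for Rnase12, Pnp2 and Tmem119.

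Differences between the 3 leukemic mice were not used to choose the genes either. The 2 libraries of a mouse lay close together for all genes but Fam69b, and each mouse was set against the spread between libraries by the limma F test over all 11 libraries. Cdh17 differed most, by 3.39 on the log2(FPKM + 1) scale between mouse 713 and mouse 760 (adjusted p = 4.18e-05), a ratio of 10.8 in FPKM. Rnase10 differed by 3.22 between mouse 760 and mouse 713 (adjusted p = 0.000289), a ratio of 10.0. Tmem40 differed by 2.42 between the same mice in the same direction (adjusted p = 0.000316), Rnase11 by 1.87 between mice 713 and 686 (adjusted p = 0.000123) and Crisp1 by 1.28 between mice 713 and 686 (adjusted p = 0.000339). These 5 of 10 genes passed, against 22.3% of the 11293 genes tested. All 5 stayed at or below 2.09 FPKM in every proB library, and the genes were picked for low proB levels. The test takes part of its spread from those libraries, so the choice of genes could lower it for these 5. The count is therefore not an independent result about the set.

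The other 5 genes did not pass this test. Myl10 varied 2.41 times between mice (adjusted p = 0.0620), Tmem119 3.40 times (0.165), Fam69b 2.70 times (0.256), Pnp2 2.74 times (0.289) and Rnase12 1.40 times (0.860). The spread that the test uses comes in part from the proB libraries, where Rnase12, Pnp2 and Tmem119 varied most: with dHet proB library 3 left out, 8 of 10 passed, and in a fit of the 6 B-ALL libraries alone, added after the data were seen, 9 of 10 passed, all but Fam69b, against 45.9% of all genes. That fit sets each mouse only against the difference between its paired libraries. Among the B-ALL mice, deviations of same-numbered libraries correlated at 0.13 to 0.64, and with the replicate number as a block 8 of 10 passed, against 27.6% of all genes. Myl10 (adjusted p = 0.00781), Pnp2 (adjusted p = 0.000316) and Tmem119 (adjusted p = 0.00248) were the genes gained. Myl10 also passed without dHet proB library 1, Tmem119 without library 2, and Fam69b when library 1 or library 2 of mouse 686 was left out. With a pseudocount of 0.1, Rnase10 and Rnase11 did not pass, which left 3 genes. The 10 genes did not rise and fall together across the mice. Mouse 713 was highest for 6, namely Rnase11, Rnase12, Pnp2, Crisp1, Cdh17 and Tmem119, as for 37.7% of all tested genes; mouse 760 was highest for Rnase10, Myl10, Tmem40 and Fam69b, 4 genes against 31.2%; mouse 686 was highest for 0 of 10, against 31.1%.

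**Figure D3:**
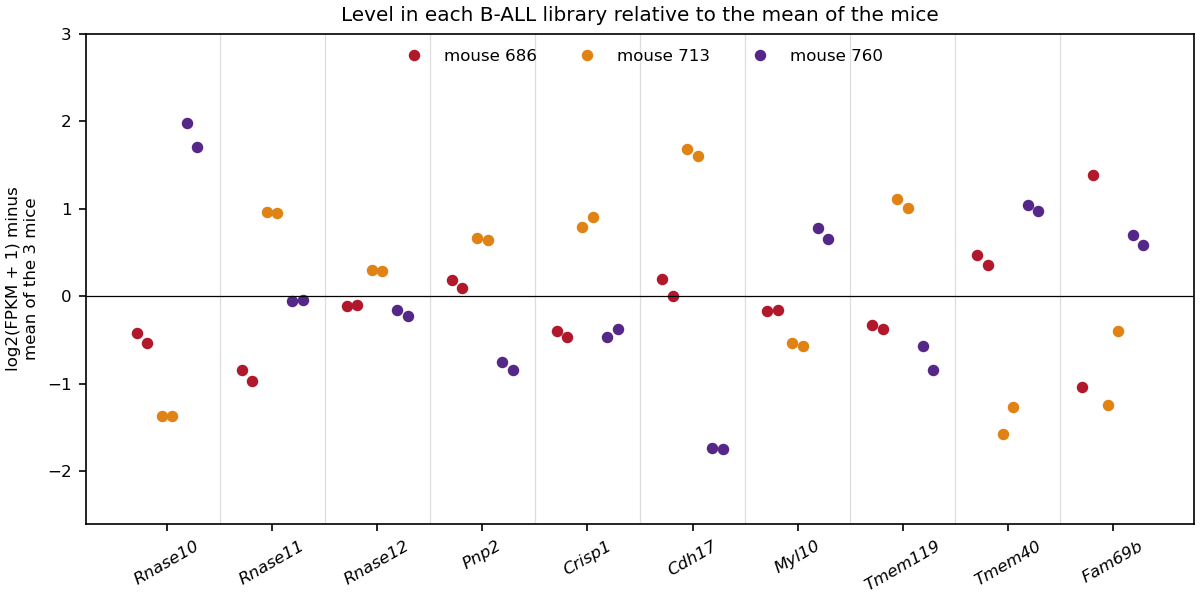
Level of each gene in each B-ALL library, as log2(FPKM + 1) minus the mean of the 3 mice; colours mark the mice and the 2 points of a colour are the 2 libraries of that mouse. Mouse 713 is at the top for Rnase11, Crisp1, Cdh17 and Tmem119 and at the bottom for Rnase10 and Tmem40, and only Fam69b shows a wide gap between the libraries of mouse 686.

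Pnp2, Rnase10, Rnase11 and Rnase12 lie in a single stretch of chromosome 14, in the order Pnp, Pnp2, Rnase10, Rnase9, Rnase11, Rnase12, Olfr750, Ang and Rnase4. This is the order of the RefSeq gene table; the FPKM tables were made on mm9, and only gene order was taken from RefSeq. The 5 nearest genes on each side of all 10 members made 71 neighbours, of which 41 passed the filter on low values. Unlike the members, these were tested between B-ALL and each proB group. Rnase9, the epididymal family member that sits between Rnase10 and Rnase11, stood at 1.30 and 1.16 FPKM in mouse 686, 4.14 and 4.55 FPKM in mouse 713 and 1.43 and 2.11 FPKM in mouse 760, against 0.0414, 0 and 0 FPKM in dHet proB and 0.0303 and 0 FPKM in wt proB. It exceeded wt proB by 1.66 (adjusted p = 0.0149) and dHet proB by 1.66 (adjusted p = 0.00850), at a level far below that of Rnase12 on the same per-length scale. Rnase9 passed the filter on low values only through the B-ALL mice, so it had to differ, and these p-values support nothing. It also differed between the mice, with mouse 713 highest (adjusted p = 0.000364).

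The other direct neighbours behaved differently from each other. Pnp, the general purine nucleoside phosphorylase, stood at 93.3 and 91.7 FPKM in mouse 686, 125 and 127 FPKM in mouse 713 and 84.1 and 84.4 FPKM in mouse 760, against 42.9, 51.3 and 133 FPKM in dHet proB and 30.4 and 23.9 FPKM in wt proB. Pnp in B-ALL exceeded wt proB by 1.84 (adjusted p = 0.0266), whereas the difference from dHet proB was 0.57 (-0.34 to 1.49, adjusted p = 0.319) and those groups overlapped. Rnase4 and Ang, ribonucleases that share a promoter, exceeded wt proB by 2.14 (adjusted p = 0.00916) and 1.99 (adjusted p = 0.0413) in B-ALL. Their differences from dHet proB, 0.82 and 0.68, did not pass (adjusted p = 0.115 and 0.340), and the call of Ang against wt proB was also lost without mouse 686 or mouse 713 and with FPKM rescaled to a common sum. The olfactory receptor Olfr750, directly beside Rnase12, reached 0.0423 FPKM in 1 library and was listed at 0 in the others. Apex1, which encodes a DNA repair endonuclease, was higher in B-ALL by 1.77 against wt proB (adjusted p = 0.0185) and by 1.59 against dHet proB (adjusted p = 0.0149). Both Apex1 calls, and that of Pnp against wt proB, were lost without mouse 686. Rnase6, known from macrophages, stood at 2.37 to 23.998 FPKM in B-ALL against 148 and 90.3 FPKM in wt proB, a difference of -3.95 (adjusted p = 0.0124). Tmem55b was below dHet proB, at -1.10 (adjusted p = 0.0193).

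On chromosome 14, 8 of 11 neighbours were tested. Of these, 5, Rnase9 included, were higher and 1 was lower in B-ALL when set against wt proB, where 905 of all 11110 tested genes were higher and 1112 lower. Against dHet proB, 2, again with Rnase9, were higher and 1 was lower, where 1614 of all tested genes were higher and 1218 lower. Their median difference was 1.71 against wt proB, where that of all tested genes was -0.02, and 0.75 against dHet proB, where it was 0.04; the stretch was set apart after the data were seen. Over all 41 tested neighbours, 7 were higher and 3 lower than in wt proB and 7 higher and 2 lower than in dHet proB, against 18.2% and 25.5% of all genes called in either direction. Without wt proB library 1 or library 2, 0 of the neighbours passed against wt proB; without mouse 686, 6 passed there and 5 against dHet proB. With FPKM rescaled to a common sum, the median of all genes shifted by -0.19 against wt proB and -0.16 against dHet proB. The share of calls that were higher in B-ALL was then 25.0% in place of 44.9% against wt proB and 39.1% in place of 57.0% against dHet proB. With quantile normalization, 41.8% of the calls between the proB groups were higher in dHet proB, in place of 25.1%.

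**Figure D4:**
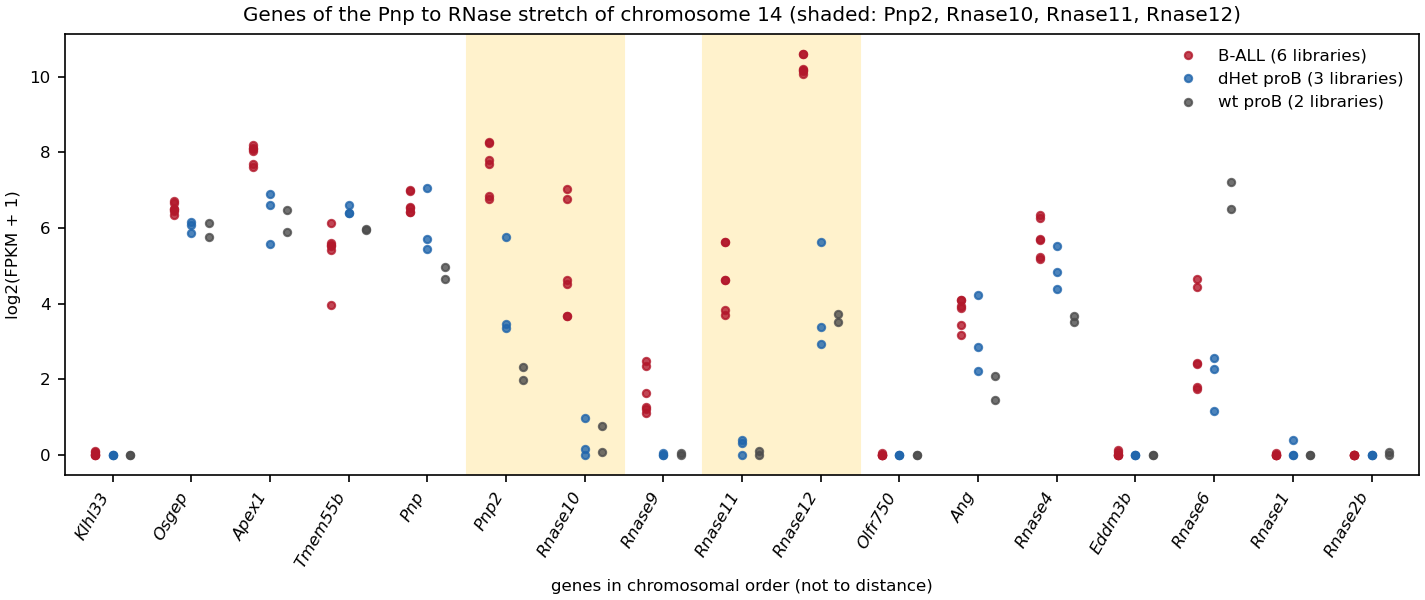
Genes of the stretch on chromosome 14 in chromosomal order along the horizontal axis (spacing not to distance), with log2(FPKM + 1) in each library on the vertical axis; red, blue and grey points are B-ALL, dHet proB and wt proB libraries, and shaded columns are Pnp2, Rnase10, Rnase11 and Rnase12. Rnase9 is above the proB libraries at a low level, Pnp overlaps dHet proB, and Olfr750, Eddm3b, Klhl33, Rnase1 and Rnase2b stay near 0 in all libraries.

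Elsewhere, calls among the neighbours gathered beside Fam69b on chromosome 2. Agpat2, an enzyme of phospholipid synthesis and a direct neighbour, stood at 34.3 and 57.5 FPKM in mouse 686, 21.2 and 34.1 FPKM in mouse 713 and 43.6 and 38.6 FPKM in mouse 760, against 2.84, 1.90 and 8.43 FPKM in dHet proB and 5.27 and 5.11 FPKM in wt proB. It was higher in B-ALL by 2.60 against wt proB (adjusted p = 0.00883) and by 2.996 against dHet proB (adjusted p = 0.00337). The noncoding Snhg7, on the other side of Fam69b, was higher by 1.43 (adjusted p = 0.0129) and 1.14 (adjusted p = 0.0162). Egfl7, the secreted vascular factor that hosts Mir126a, was higher than in dHet proB by 2.91 (adjusted p = 0.0135), and its difference from wt proB was 2.197 (adjusted p = 0.0597). In mice 686 and 713, where library 2 held more Fam69b than library 1, it also held more Agpat2. This was noticed in the data, and the share of all genes with this pattern was not counted. Tmem55b on chromosome 14 showed it too, at 14.7 and 45.8 FPKM in mouse 686 and 47.2 and 68.7 FPKM in mouse 713. A link between Agpat2 and Fam69b was not tested.

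The remaining direct neighbours gave few calls. Gem, a small GTPase beside Cdh17, exceeded dHet proB by 2.09 (adjusted p = 0.0112), while its difference from wt proB was -0.04 (adjusted p = 0.958). Selplg, the selectin ligand beside Tmem119, was below wt proB in B-ALL, at -1.005 (adjusted p = 0.0408), and Cand2, beside Tmem40, was lower than in both, at -0.85 (adjusted p = 0.0370) and -0.80 (adjusted p = 0.0252). The Selplg call and both Cand2 calls were lost without mouse 686 and with no filter on low values. Iscu, Pdp1 and Col26a1 did not pass against either group, with adjusted p between 0.0570 and 0.810. None of the 10 neighbours of Crisp1 passed the filter on low values.

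Relatives and pathway partners of the members, taken as lists with earlier results of these data known, were counted for each family. In the RNase A family list of 18 genes, 10 were listed at 0 in every library and 5 were tested: Rnase4, Ang and Rnase9 were higher than in wt proB and Rnase6 was lower, and Rnase9 alone was higher than in dHet proB. Rnase9 passed the filter only through B-ALL, so its calls support nothing. No other gene of the list passed against dHet proB. In the purine salvage and breakdown list 17 of 21 were tested, with 5 higher and 2 lower than in wt proB (median 0.76) and 8 higher and 1 lower than in dHet proB (median 0.79). Aprt, which salvages adenine, was higher by 1.81 (adjusted p = 0.000809) and 1.80 (adjusted p = 0.000736). Mtap, which cleaves methylthioadenosine, was higher than in wt proB by 1.59 (adjusted p = 0.0116) and than in dHet proB by 1.57 (adjusted p = 0.00720). Adk, which acts on adenosine, was higher than in wt proB by 1.45 (adjusted p = 0.0354) and than in dHet proB by 1.68 (adjusted p = 0.0117). Ampd3, which acts on AMP, was higher than in dHet proB by 2.48 (adjusted p = 0.00136). Its difference from wt proB, 0.81, did not pass (adjusted p = 0.0915). Dck, the deoxycytidine kinase, was lower than in both, at -0.79 (adjusted p = 0.0353) and -1.02 (adjusted p = 0.00831), and the nucleotidase Nt5c2 was lower than in wt proB, at -0.62 (adjusted p = 0.0417).

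In the list of CRISP and related secreted proteins 3 of 10 were tested; Pi16 was lower than in wt proB, at -1.06 (adjusted p = 0.00795), and Glipr2 was lower than in dHet proB, at -1.48 (adjusted p = 0.00334). Of 17 cadherins and catenins 7 were tested. The protocadherin Pcdhgc3 was higher by 2.26 (adjusted p = 0.00238) and 1.27 (adjusted p = 0.0125), while Cdh5 and Cdh1, the endothelial and epithelial cadherins, were lower than in wt proB, at -3.02 (adjusted p = 8.93e-05) and -2.15 (adjusted p = 0.00122). Of 17 myosin light chain and non-muscle myosin genes 11 were tested. Mylk, the kinase that phosphorylates regulatory light chains, was higher by 1.496 against wt proB (adjusted p = 0.00402) and 3.22 against dHet proB (adjusted p = 0.000211), Myl4 was higher than in dHet proB by 1.69 (adjusted p = 0.00580), and the heavy chain Myh10 was lower than in dHet proB, at -2.55 (adjusted p = 0.00238). Of 9 genes of the FAM69 and related kinase list 4 were tested; Fam20b was lower than in wt proB, at -1.01 (adjusted p = 0.00628), and Fam69a was higher than in dHet proB by 0.80 (adjusted p = 0.0122). In the same comparisons 18.2% and 25.5% of all genes were called. The naming rule gave 26 list genes for the comparison with wt proB, those of the tissue and cell type lists below included. With wt proB library 1 left out, 17 of the 22 that were still tested lost the call, and with library 2 left out 18 of 22 did; Aprt, Runx2 and Tyrobp kept it both times. Some of these genes reached 1 FPKM only in the higher group and so had to differ: Rnase9, Cd3e and Cd3g in B-ALL, and Cdh1, Cdh5, Elane and Pi16 in wt proB. Without dHet proB library 3, 20 of the 22 list genes named against dHet proB kept the call, all but Rag1 and Ebf1.

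Markers of the tissues that these genes are known from were read beside them. Of 17 epididymis genes 12 were listed at 0 everywhere and 16 stayed under 1 FPKM in every library; the exception was Rnase9, which the RNase list also holds. The list summed to 1.197 to 4.59 FPKM in B-ALL, 0 to 0.122 FPKM in dHet proB and 0.0303 to 0.192 FPKM in wt proB. Of 15 intestine genes 13 stayed under 1 FPKM in every library, and the sum ran from 5.84 to 73.4 FPKM in B-ALL, 2.16 to 5.24 FPKM in dHet proB and 10.1 to 11.1 FPKM in wt proB. The upper end came from Epcam, named here after its values were seen, at 71.1 and 64.1 FPKM in mouse 760, the mouse with the least Cdh17. Of 13 skeletal muscle genes 11 stayed under 1 FPKM and only Tnni2, a troponin subunit, was tested; it was higher by 2.31 (adjusted p = 0.00575) and 1.75 (adjusted p = 0.00984).

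For Tmem119 the lists were microglia and osteoblasts. Among 12 microglia genes the defining Sall1 reached 0.00783 FPKM and Fcrls 0.125 FPKM at most. P2ry12, Tyrobp and Csf1r were higher than in dHet proB by 2.65 (adjusted p = 0.00168), 2.62 (adjusted p = 0.00810) and 2.23 (adjusted p = 0.0183), and Tyrobp was lower than in wt proB, at -4.64 (adjusted p = 0.00132); the list summed to 35.8 to 83.8 FPKM in B-ALL, 36.9 to 49.1 FPKM in dHet proB and 261 to 410 FPKM in wt proB. Csf1r was highest in mouse 686, at 9.79 and 7.32 FPKM, whereas Tmem119 was highest in mouse 713. Of 8 osteoblast genes Sp7, Bglap and Ibsp were at or below 0.237 FPKM in every library, and the sum ran from 34.8 to 156 FPKM in B-ALL, 48.2 to 124 FPKM in dHet proB and 42.4 to 52.9 FPKM in wt proB, with the upper end in B-ALL set by Alpl, at 147 and 151 FPKM in mouse 713. Runx2 was lower than in wt proB, at -3.44 (adjusted p = 0.000600).

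Markers of other cells that a lymph node or a culture can hold were read in the same way. The 8 T cell genes summed to 23.2 to 429 FPKM in B-ALL, 5.08 to 14.4 FPKM in dHet proB and 72.9 to 80.0 FPKM in wt proB. The upper end was Cd2 in mouse 713, where Cd3d, Cd3e and Cd3g stood at only 3.01 to 4.79 FPKM. Cd2 also made most of the sum in wt proB, at 65.5 and 61.1 FPKM. The sum is thus not a measure of T cells. Of these genes 6 were higher than in dHet proB, with Cd3e, Cd3g and Tcf7 at 2.06 (adjusted p = 0.00631), 2.06 (adjusted p = 0.00405) and 2.01 (adjusted p = 0.0144). Against wt proB 4 were higher and 1 lower, with Tcf7, Cd3e and Cd3g at 1.87 (adjusted p = 0.0331), 1.52 (adjusted p = 0.0314) and 1.31 (adjusted p = 0.0326) and Cd4 at -1.78 (adjusted p = 0.00371). Cd3d, Cd3e and Cd3g are counted in both comparisons but passed the filter only through B-ALL, so their calls support nothing. Among all tested genes, 14.5% were higher than in dHet proB, and 8.15% were higher and 10.0% lower than in wt proB. Cd3e, of the T cell receptor complex, stood at 1.18 to 5.41 FPKM in B-ALL, 0 FPKM in dHet proB and 0.671 and 0.273 FPKM in wt proB. The macrophage and myeloid list, which summed to 31.3 to 249 FPKM in B-ALL, 14.3 to 50.9 FPKM in dHet proB and 393 to 411 FPKM in wt proB, had 2 genes above dHet proB and 4 below wt proB. Cd68 stood above dHet proB by 2.44 (adjusted p = 0.0115), and Ngp, Elane and Cd68 below wt proB at -5.78 (adjusted p = 0.00963), -2.80 (adjusted p = 0.00132) and -2.64 (adjusted p = 0.0157). Elane and Mpo, both among the 4, passed the filter only through wt proB, so their calls support nothing. The shares of all tested genes called are those given for the T cell genes. The 8 stroma and endothelium genes summed to 20.1 to 46.9 FPKM in B-ALL, 42.9 to 81.6 FPKM in dHet proB and 60.2 to 64.0 FPKM in wt proB, with Col1a1 at most 0.439 FPKM, and the 4 platelet genes to at most 2.0 FPKM, with none tested. Ebf1 in B-ALL was below wt proB, at -1.19 (adjusted p = 0.0203), and Rag1, Pax5 and Ebf1 were lower than in dHet proB, at -1.14, -0.95 and -0.83 (adjusted p = 0.0265, 0.0214 and 0.0374). Lyz2, a myeloid gene, stood at 204 FPKM in both libraries of mouse 686. Cd2, which the Cd3 genes did not match, stood at 404 and 401 FPKM in mouse 713. Both lay above Rnase10, Rnase11, Crisp1 and Tmem40 in those mice and below Rnase12 and Myl10. The part of other cells in the values of the 10 genes was not tested.

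The genes most like the members over the 11 libraries were sought among 10432 tested genes by the root mean square difference between profiles of log2(FPKM + 1), each centred on its own mean. The profiles include the difference between B-ALL and proB by which the members were chosen. The search therefore favours genes with that same difference. In each gene found and named here, every B-ALL library lay above every proB library, and this is not an independent result. Sos1, a guanine nucleotide exchange factor for RAS, was the closest to Rnase11 (0.49), Crisp1 (0.63), Tmem119 (0.75) and Cdh17 (1.21). Sos1 stood at 38.3 and 30.7 FPKM in mouse 686, 48.3 and 42.8 FPKM in mouse 713 and 35.1 and 31.5 FPKM in mouse 760, against 0.905, 1.15 and 1.39 FPKM in dHet proB and 1.06 and 1.17 FPKM in wt proB. It too has its highest mouse in 713, with a far smaller spread between mice than Cdh17. Tmed6 was the closest to Tmem40 (0.33) and Rnase10 (0.90); it stood at 14.6 and 14.1 FPKM in mouse 686, 1.94 and 2.65 FPKM in mouse 713 and 23.6 and 25.0 FPKM in mouse 760, against 0, 0.120 and 0 FPKM in dHet proB and 0.138 and 0.156 FPKM in wt proB. Gimap4 was the closest to Rnase12 (1.201), Qrfp to Pnp2 (0.85), Ffar2 to Myl10 (0.69) and Ggnbp1 to Fam69b (0.74). Among the members, Rnase11 and Crisp1 were the most alike (0.46), on different chromosomes, followed by Pnp2 and Tmem119 (0.51), and Rnase10 and Cdh17 were the least alike (2.10).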

How the data were processed

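Per the labels' protocols, total RNA was sequenced from 11 libraries (6 B-ALL, 3 dHet proB, 2 wt proB). Per the submitters' processing notes, the tools were bcl2fastq (2.20.0.422 and 0.3.1), STAR 2.5.3a, Cuffnorm 2.2.1, Cuffdiff and Cufflinks 2.2.1, and the build was mm9. The annotation and scaling were not given in the sources used here. Tables of FPKM, 1 for each library, were deposited by the authors, without counts.

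From these, log2(FPKM + 1) was computed, and the libraries of a mouse were averaged, giving 8 units. limma 3.58.1 (R 4.3.3, statmod 1.5.0; trend, shared spread, two-sided) tested the 11110 genes with at least 1 FPKM in at least 2 units, with Benjamini-Hochberg adjustment over all of them at 0.05; every adjusted p given is from limma. The F test between mice used 11 libraries in 5 groups and 11293 genes. An exact permutation test of 3 against 2 or 3 against 3 values cannot go below p = 0.1, so none was used. The scripts were tested on simulated data. Tables were handled with Python 3.11.15, pandas 2.3.3 and numpy 2.4.6.

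The 10 genes, the lists and the tests were chosen with earlier results of these data known. Named genes were the 10 members, neighbours that passed or lay next to a member, up to 3 list genes per direction among those that passed with no overlap between groups, and the closest genes by profile. Some genes that this rule gives are not reported here. Promoters came from RefSeq (GRCm38.p6), shared 31-base words from GENCODE M21 transcripts. Alternatives changed the pseudocount, filter, scaling, groups in the fit, treatment of the libraries of a mouse, replicate block and libraries included.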

Additional observations from a re-analysis of the deposited data

How the results depend on the processing

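The log2 differences of the 10 genes between B-ALL and either proB group, given without a test, moved by less than the spread between mice in 286 of 300 recalculations with another pseudocount, scaling or set of libraries and moved further in 14; their direction is fixed by how the genes were chosen. With 1 library or mouse left out at a time, dHet proB against wt proB gave 76 to 1251 in place of 964, B-ALL against wt proB 195 to 2460 in place of 2017, B-ALL against dHet proB 1393 to 2965 in place of 2832, and the mice 1302 to 3430 in place of 2513. Under the same left-out libraries, 0 to 2 of the 10 genes passed between the proB groups (1 with all), 5 to 8 between the mice (5 with all), and 0 to 14 neighbours passed against wt proB (10 with all) and 5 to 13 against dHet proB (9 with all). Without wt proB library 1, 76 genes passed between the proB groups and 275 between B-ALL and wt proB; without library 2, 115 and 195 did, a fit in which the lone wt library is assumed to vary like the other groups. With only the 2 proB groups in the fit, 2 of the 6 tested genes passed, Myl10 and Fam69b. With a pseudocount of 0.1, 3 of 10 passed between the mice, and Rnase10 and Rnase11 did not. In the 6 B-ALL libraries alone, 9 of 10 and 5181 of all genes passed. Over all groups the replicate numbers do not pair the samples: deviations of same-numbered libraries correlated at -0.13 to 0.64 over 20 pairs, 9 of them over 0.1, including all those among the B-ALL mice, where the values for library 1 and library 2 are the same by construction. With the replicate number as a block, calls numbered 2773 between the proB groups, 5540 for B-ALL against wt proB and 5686 against dHet proB, with 3 and 8 of the 10 genes called between proB groups and between mice, and 22 and 20 neighbours called. Depth is unknown, so the counting error of values near 0 FPKM cannot be given.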
